A study of Pinctada fucata with 15 samples.

Results

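Tyrosinases are copper-containing enzymes that oxidize tyrosine to DOPA and on to reactive quinones, which build melanin pigment and cross-link proteins. In pearl oysters they are known from the mantle, the tissue that secretes the shell, and have been linked to the tanning of the periostracum, the outer organic skin of the shell, and to the prismatic layer. Tyrosinase-like proteins share sequence with tyrosinase, and how far each acts as an enzyme is less well known. Here 3 probes of *Pinctada fucata* were followed through larval development: tyrosinase (CUST_54654_PI429347424, below CUST_54654), tyrosinase-like protein 1 (CUST_11152_PI429347424, below CUST_11152) and, as the third, tyrosinase-like protein 2 (CUST_41072_PI429347424, below CUST_41072). They were taken by their probe names from the 58883 probes of the array. Each probe lay at 1 spot, and that spot was neither an outlier nor saturated on any array.

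RNA came from pools of whole animals in normal culture without treatment, at 5 stages with 3 pools each: fertilized eggs (O, 0 hours), the trochophore stage (T, 17 hours), the D-shaped stage (D, 48 hours), the umbonal stage (U, 14 days) and the juvenile (J, 35 days). Each pool was hybridised to 1 of 15 one-colour Agilent arrays, and nothing in the labels says whether the pools of a stage came from separate spawnings, so p values measure the spread between these pools only. In pools of whole animals, more cells that express a gene and more RNA per cell cannot be told apart. Values are log2 of the array signal after quantile normalization, given as mean ± SD of 3 pools, and a spot counts as detected where the scanner software placed it well above background. A probe was tested between 2 stages where it was detected in all 3 pools of at least 1 of them, and was called at a limma adjusted p under 0.05 and a difference of at least 2-fold. The share of detected spots per array was 53.3% to 65.6% in eggs and 89.3% to 91.2% in juveniles. The arrays lay on 2 slides, with D-shaped pools 1 and 2 on the slide of the eggs and trochophores and D-shaped pool 3 on that of the later stages. The share was 74.6% and 70.4% in D-shaped pools 1 and 2 and 86.1% in D-shaped pool 3. Only the D-shaped stage lay on both slides, with 1 array on the second. Between the other stages, age and slide can be told apart in this share only through that array, and their parts were not tested.

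All 3 genes had their highest signal in juveniles, in every pool. Tyrosinase read 14.59, 14.60 and 14.23 in the juvenile pools, and no pool of an earlier stage exceeded 7.50. Tyrosinase-like protein 1 read 11.20, 11.29 and 10.48 in juveniles against at most 5.29 before. Tyrosinase-like protein 2 read 13.22, 13.28 and 13.14 against at most 7.69 before. The lowest juvenile pool thus stood above the highest earlier pool by 6.72 log2 units for tyrosinase, 5.20 for tyrosinase-like protein 1 and 5.45 for tyrosinase-like protein 2. Over the whole array, 7037 of 58686 probes, or 12%, had all juvenile pools above all earlier ones.

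**Figure D1:**
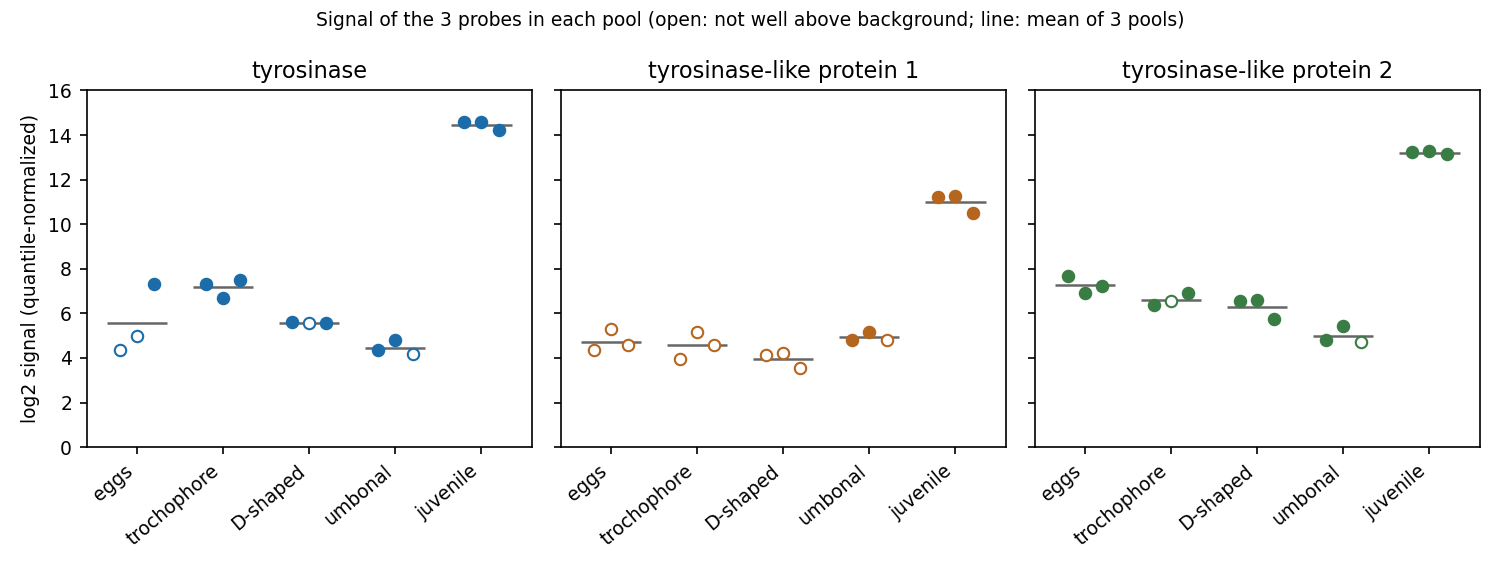
Log2 signal (vertical axis) of tyrosinase, tyrosinase-like protein 1 and tyrosinase-like protein 2 in each pool, by stage; filled points are well above background, open points are not, and the line is the mean of 3 pools. The juvenile pools of each probe stand clear of the 12 earlier pools, and tyrosinase-like protein 1 has open points at all pools before the umbonal stage.

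Between the umbonal stage and juveniles, all 3 probes were called higher (3 of 3 tested, beside 13.4% of the 52418 probes tested that were called higher). For tyrosinase the umbonal pools read 4.35, 4.79 and 4.18, with detection in 2 of 3, and the difference was 10.03 (95% interval 8.85 to 11.21, adjusted p = 1.1e-08), a 1046-fold rise. For tyrosinase-like protein 2 the umbonal pools read 4.80, 5.42 and 4.71, again with detection in 2 of 3, and the difference was 8.24 (95% interval 7.64 to 8.83, adjusted p = 1.4e-10), a 302-fold rise. For tyrosinase-like protein 1 the umbonal pools read 4.80, 5.18 and 4.80, detected in 2 of 3, and the difference was 6.06 (95% interval 5.34 to 6.79, adjusted p = 1.3e-08), a 66.9-fold rise. The median over all probes tested was -0.11. Ordered by the size of the rise among the 49351 probes detected on at least 2 pools of both stages, tyrosinase stood at place 16, tyrosinase-like protein 2 at place 81 and tyrosinase-like protein 1 at place 263. Tyrosinase is also among the genes that the study listed for a change at this and both preceding transitions, so its rise here is not independent of that choice. The fold depends on how the dim umbonal signal is treated: with normexp background correction the differences were 7.98, 6.32 and 4.31 for tyrosinase, tyrosinase-like protein 2 and tyrosinase-like protein 1, all still called.

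The same comparison against the stages before the umbonal one uses the same juvenile pools, so the values below are not further evidence of the juvenile signal, only of its size against each stage. Against eggs, all 3 probes were called higher in juveniles (32.4% of all probes tested were), tyrosinase by 8.92 and tyrosinase-like protein 2 by 5.94. Against trochophores all 3 were called higher (25.8% of all probes tested were), by 7.29 for tyrosinase and 6.60 for tyrosinase-like protein 2. Against D-shaped larvae all 3 were again called higher (20.8% of all probes tested were), by 8.89 and 6.93. Tyrosinase-like protein 1 was detected in no pool of these stages, and its juvenile signal was at least 18.9-fold higher than in eggs, at least 31.0-fold higher than in trochophores and at least 62.9-fold higher than in D-shaped larvae (limits that set each dim pool to the lowest detected signal of its array, or to its own signal where that was higher). The adjusted p values of these 9 comparisons in limma were 5.5e-08 or lower, and all 9 stayed called with slide as a block, a check added after the data were seen.

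Before the juvenile stage the 3 probes differed in their course. Tyrosinase was highest in trochophores, at 7.33, 6.71 and 7.50, and was detected in all 3 pools. The eggs read 4.36, 4.98 and 7.31, and only the third was detected. The trochophores were called higher than the eggs, by 1.63 (95% interval 0.45 to 2.81, adjusted p = 0.016), but egg pool 3 lay within the trochophore range, so the stages overlapped. This was 1 of 2 members tested, where 26% of the 38140 probes tested were called higher. Fitted on the 6 arrays of these stages alone, the difference had an adjusted p of 0.10. Without egg pool 3 it was 2.49, and without egg pool 1 it was 1.05 with an adjusted p of 0.081. The call was also lost without egg pool 2 (1.35) or trochophore pool 3 (1.45).

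After the trochophore stage the tyrosinase signal went down. The D-shaped pools read 5.61, 5.56 and 5.55, below every trochophore pool, and the difference of -1.60 (95% interval -2.78 to -0.42) was called with an adjusted p of 0.023. Of the 42190 probes tested at this transition, 16.6% were called lower, and tyrosinase was the 1 of 2 members tested that was. The 3 D-shaped pools differed by less than 0.1, although pool 3 lay on the other slide, and the difference within the first slide was -1.59. The call was lost with slide as a block (adjusted p = 0.051), under other scalings (75th-percentile shift -1.32, spike-in scaling -0.76) and without trochophore pool 1, trochophore pool 3 or D-shaped pool 2, where the adjusted p was between 0.052 and 0.072. From the D-shaped to the umbonal stage tyrosinase differed by -1.14, with no overlap between the pools, but was detected in 2 of 3 pools of both stages and was not tested. Over the whole span from trochophore to umbonal stage it was called lower, with an umbonal minus trochophore difference of -2.74 (95% interval -3.92 to -1.56, adjusted p = 5.7e-04), 1 of 1 member tested beside 25.7% of all probes, and with slide as a block the difference was -2.70 (adjusted p = 0.046). The order of the tyrosinase means was juvenile, trochophore, D-shaped stage, eggs and umbonal stage. D-shaped larvae and eggs differed by 0.02 with an SE of 0.55 and an overlap of their pools, and this pair was not tested. Eggs and umbonal larvae were not tested either, and egg pool 1 (4.36, not detected) lay within the umbonal range, while egg pool 3 raised the egg mean.

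After quantile normalization tyrosinase-like protein 2 was highest of the early stages in eggs, which read 7.69, 6.89 and 7.24 and were all detected. This order depended on the normalization. Before it, the signal (not log2) was 85.6, 47.0 and 53.7 in eggs and 87.3, 73.8 and 84.5 in D-shaped larvae. In egg pools 1 and 2, however, its spot was no higher than the median of control spots near the array corner, as described below. The trochophores read 6.37, 6.57 and 6.91, detected in 2 of 3 pools. The D-shaped larvae read 6.54, 6.59 and 5.73, all detected. The egg and trochophore pools overlapped, as did the trochophore and D-shaped pools. From eggs to trochophores the difference was -0.66 (adjusted p = 0.045), less than 2-fold and so not called, and with spike-in scaling it turned to 0.45. From trochophores to D-shaped larvae it was -0.33 (adjusted p = 0.32, 95% interval -0.93 to 0.26), and with spike-in scaling 0.49. From eggs to D-shaped larvae the difference of -0.99 passed the adjusted p (0.0049) and just missed 2-fold, so that 0 of 1 member tested was called, beside 61% of all probes.

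After quantile normalization the umbonal pools had the lowest tyrosinase-like protein 2 signal. The difference from the D-shaped stage was -1.31 (95% interval -1.90 to -0.71, adjusted p = 0.0014), the 1 of 1 member tested at this transition, where 15.8% of 47880 probes tested were called lower. Within the slide that held the umbonal arrays, where D-shaped pool 3 was the sole D-shaped array, the difference was -0.75, and with slide as a block it was no longer called (adjusted p = 0.098). D-shaped pool 3 read 0.84 below the mean of pools 1 and 2. Over all probes the median of the same deviation was -0.11. From eggs to umbonal larvae tyrosinase-like protein 2 was called lower, with a difference of -2.30 (95% interval -2.89 to -1.70, adjusted p = 4.1e-06), 1 of 1 member tested beside 31.4% of all probes. The egg and umbonal arrays lay on different slides, and with slide as a block, which rests on the D-shaped pools, the difference was -1.46 (adjusted p = 0.0091), still called. Before normalization, with no scaling between arrays, the signal (not log2) was 85.6, 47.0 and 53.7 in the egg pools. It was 57.8, 65.7 and 40.2 in the umbonal pools, so the stages overlapped there. The part of the normalization in this difference was not tested. In egg pools 1 and 2 the probe was no higher than the median of the corner controls described below. The part of that corner signal in this difference was not tested.

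Tyrosinase-like protein 1 stayed dim until the umbonal stage. It was detected in none of the 3 egg, 3 trochophore and 3 D-shaped pools, where it read between 3.56 and 5.29, and no fold is given among these stages. It was detected in umbonal pools 1 and 2. The umbonal mean of 4.93 ± 0.21 lay above the D-shaped mean of 3.97 ± 0.36 with no overlap of the pools, a difference of 0.96 that was 1.80 with the 75th-percentile shift, 2.20 with spike-in scaling and 0.44 with normexp. This pair was not tested, because neither stage was detected in all 3 pools, and the limit set by the lowest detected signals gave no fold above 1. A test was possible without umbonal pool 3 (adjusted p = 0.051) and with no filter on dim probes (adjusted p = 0.032), and neither gave a call, the second because the difference was under 2-fold. The juvenile level thus stood first, and on normalized values the other 4 stages had no settled order. Egg pool 2 (5.29, not detected) was above every umbonal pool, and the umbonal pools overlapped those of eggs and trochophores. Before normalization, with no scaling between arrays, there was no such overlap. The signal (not log2) was 57.7, 56.0 and 43.6 in the umbonal pools, and the highest earlier value was 23.4, in trochophore pool 2.

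**Figure D2:**
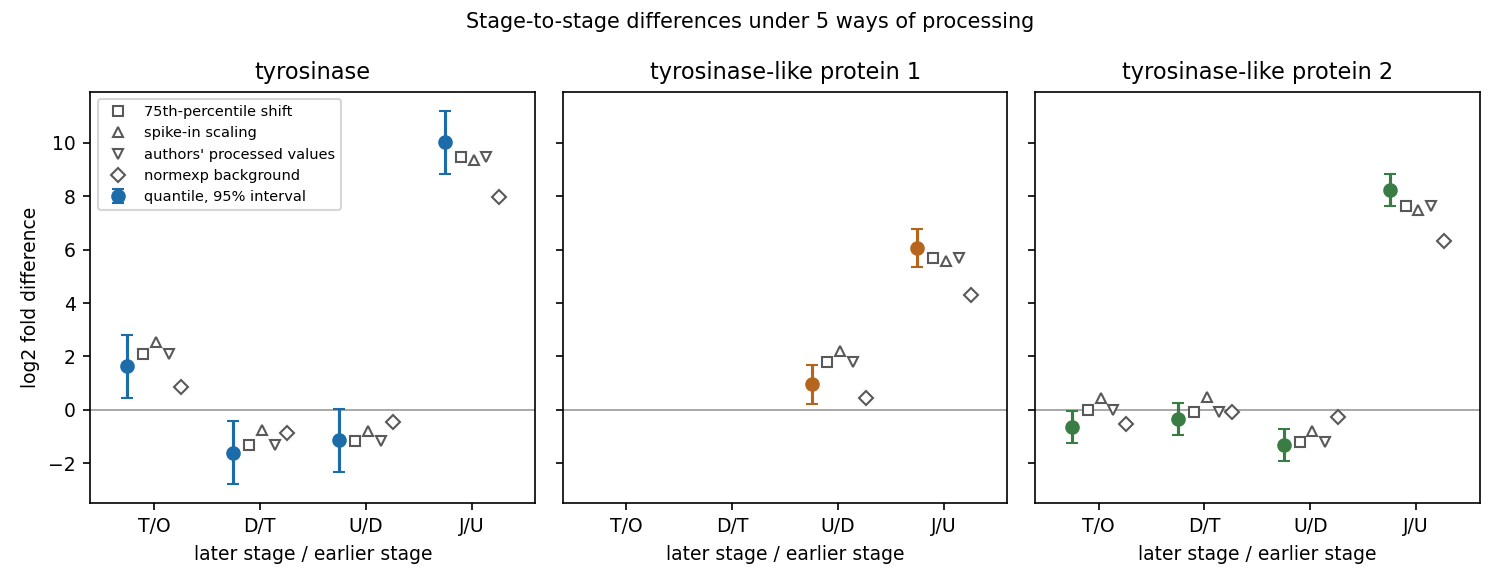
Log2 difference between consecutive stages (later minus earlier, vertical axis) for the 3 probes, with the limma 95% interval on quantile-normalized values (filled) and the value under 4 other ways of processing (open). Of these, the 75th-percentile shift and the authors' processed values are nearly the same scaling. At J/U every processing gives a difference of at least 4.31, while the T/O and D/T values of tyrosinase-like protein 2 lie on both sides of 0; tyrosinase-like protein 1 is not drawn at T/O and D/T, where it was detected in no pool.

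The processed signal before normalization showed how close to background these early values lay. In juveniles it was 30245, 27579 and 20614 for tyrosinase, 3697, 3393 and 1938 for tyrosinase-like protein 1, and 12387, 11505 and 9957 for tyrosinase-like protein 2. Before the juvenile stage it did not exceed 165 for any of them, a value reached by tyrosinase in trochophore pool 3. Where a spot was not significantly above background the scanner software had put in a stand-in value. In egg pool 1 many dim probes shared 1 value, a log2 of 4.36 after normalization for 18147 probes, among them tyrosinase and tyrosinase-like protein 1. In egg pool 2 these probes were not significant either, but their values before normalization differed (9.90 and 11.4).

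The spot of tyrosinase-like protein 2 lay in row 2, column 10, near a corner of the array, where 7 control spots that carry no sample probe also gave signal on some arrays. In egg pool 1 these control spots had a median of 111.5, all 7 of them well above background, and the probe itself read 85.6. In egg pool 2 the controls had a median of 68.0, again with 7 of 7 well above background, and the probe read 47.0. In trochophore pool 3 the controls had a median of 78.2, with 6 of 7 well above background, against 109.6 for the probe. There and on the arrays other than egg pools 1 and 2 the probe exceeded the highest of the 7 controls. In the D-shaped larvae it read 87.3 in pool 1 against a control median of 43.2, 73.8 in pool 2 against 21.5, and 84.5 in pool 3 against 5.78. In juveniles it was 9957 or more against control medians of 17.2 or less. In egg pools 1 and 2 the probe was thus no higher than the median of the controls. The part of the corner signal in the differences between eggs, trochophores, D-shaped larvae and umbonal larvae was not tested.

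**Figure D3:**
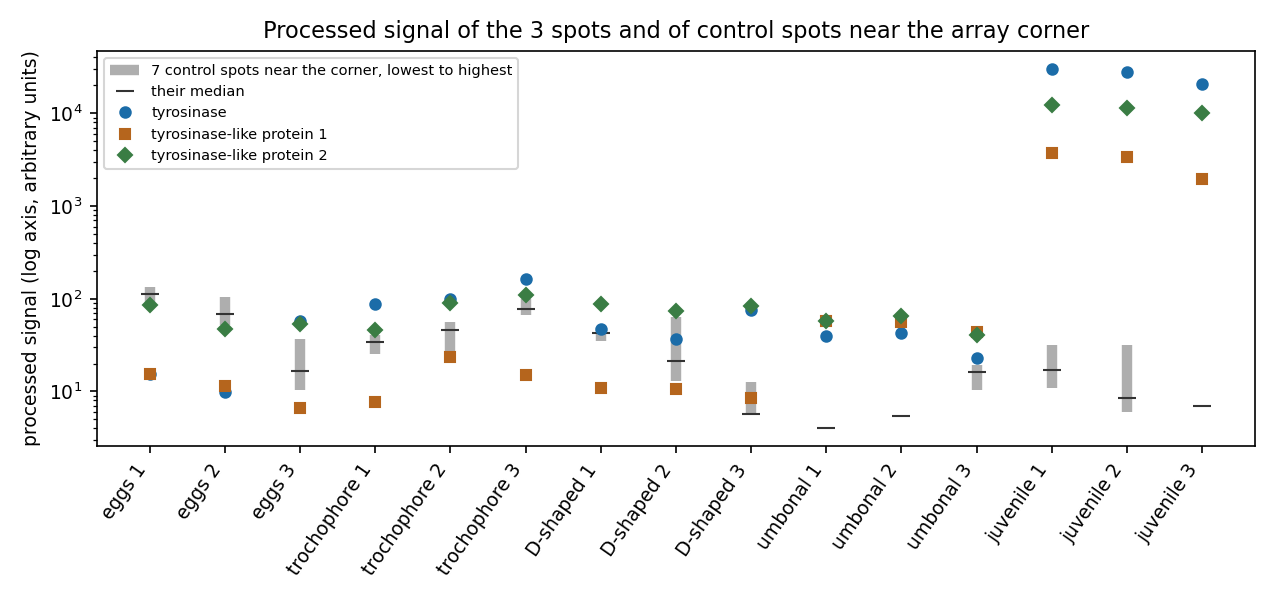
Processed signal before normalization (log axis, arbitrary units) of the 3 probes on each array, with the range (grey bar) and median (dash) of 7 control spots near the array corner. In egg pools 1 and 2 tyrosinase-like protein 2 falls at or below the controls, and in juveniles all 3 probes lie between 1938 and 30245.

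Another 14 probes carry a tyrosinase annotation in the table of contigs higher in juveniles: 8 annotated as *P. fucata* tyrosinase, 2 as tyrosinase-like protein 1, 2 as tyrosinase-like protein 2, 1 as a tyrosinase precursor of the squid *Illex argentinus* and 1 as the tyr-3 member of the *Caenorhabditis elegans* family. That table was made from the umbonal and juvenile arrays, so the higher juvenile signal of these probes is how they were chosen and is no independent support. Several contigs share an annotation and may be parts or copies of 1 transcript, so the probes are not counted as separate genes. As a description, all 14 were higher in juveniles than at the umbonal stage, by 3.85 to 10.06 with a median of 7.05. Their umbonal levels were measured in at least 1 pool for 4 of them, with folds between 14.4 and 942, and gave only limits for the other 10, between at least 9.68-fold and at least 429-fold.

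The umbonal and juvenile arrays chose these probes, and the 9 pools of eggs, trochophores and D-shaped larvae did not. Of the 14, 11 were detected in none of these 9 pools. Among the 7021 probes of the array that were called higher in juveniles at J/U and had a flag on every array, 1478, or 21.1%, were detected in none of them. The study chose the 14 at a larger minimum rise than the 2-fold used for these 7021 calls. A larger rise favours probes that are dim before juveniles, so the shares are not of like sets and are not compared. With the umbonal pools counted as well, 10 of the 14 were detected in none of the 12 earlier pools, which their choice favours. The 3 members themselves were detected in 8 (tyrosinase), 2 (tyrosinase-like protein 1) and 10 (tyrosinase-like protein 2) of the 12 earlier pools. The remaining 4 probes were CUST_35887 with 7 earlier pools, CUST_46735 with 3, and CUST_7575 and CUST_52356 with 2 each.

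CUST_35887, annotated as tyrosinase, followed the course of CUST_54654. It read 7.10, 7.89 and 7.86 in trochophores against 4.36, 4.47 and 6.35 in eggs, with no overlap, and was called higher by 2.55 (adjusted p = 1.6e-04). It was not detected in any egg pool, and its limit is at least 1.69-fold. It was then called lower in D-shaped larvae than in trochophores (-1.88, adjusted p = 0.0028), and lower in umbonal larvae than in trochophores (-2.86, adjusted p = 6.9e-05). In both probes egg pool 3 was the highest egg pool. CUST_57941, also annotated as tyrosinase, read 3.92, 4.77 and 5.50 in trochophores but was not detected there. The other 6 probes annotated as *P. fucata* tyrosinase were detected in no trochophore pool either.

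Probes with the same annotation disagreed about tyrosinase-like protein 2. CUST_41072 was detected in 10 of the 12 earlier pools, whereas CUST_58084 was detected in none and CUST_7575 in umbonal pools 1 and 2 only. In egg pools 1 and 2 CUST_41072 was no higher than the median of the corner controls. In eggs CUST_58084 read 4.56 ± 0.42 and CUST_7575 read 4.23 ± 0.16, without detection. In juveniles both were detected in all pools, at 12.85 ± 0.22 and 12.24 ± 0.11. For tyrosinase-like protein 1, neither CUST_31941 nor CUST_36523 was detected before the juvenile stage, at 11.77 ± 0.42 and 10.06 ± 0.14 in juveniles.

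**Figure D4:**
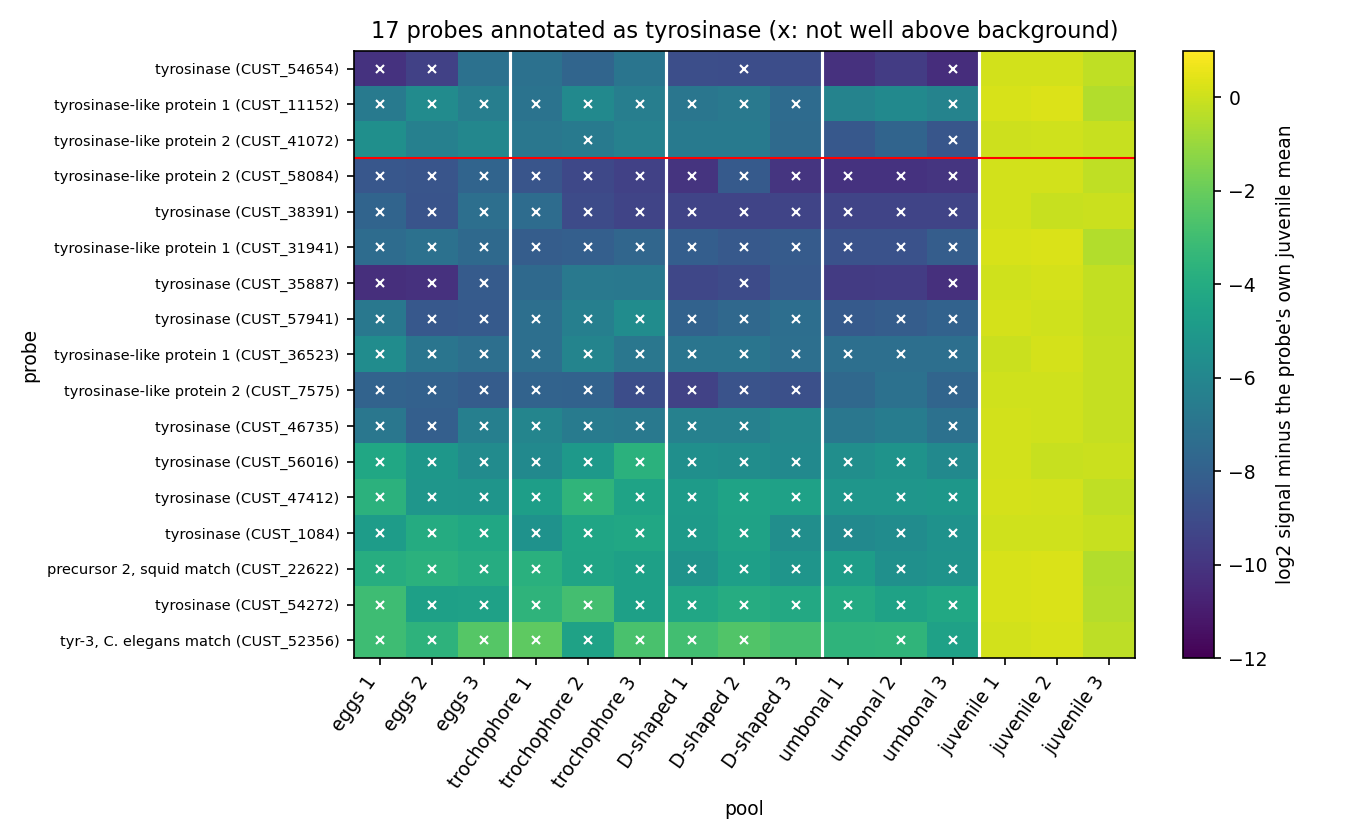
Log2 signal of 17 probes annotated as tyrosinase in each pool (columns), as the difference from the probe's own juvenile mean (colour); a cross marks a spot not well above background, and the red line divides the 3 members from the 14 other probes. Of the 14 other probes 10 carry a cross in all 12 earlier pools, and CUST_54654 and CUST_35887 are the only 2 of the 17 with no cross at the trochophore stage.

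The juvenile pools were not alike. Pool 3 was the lowest of the 3 for all members, with deviations from the mean of the other pools of -0.37 for tyrosinase, -0.76 for tyrosinase-like protein 1 and -0.11 for tyrosinase-like protein 2. It was below the mean of the others in 14 of the 14 other tyrosinase probes too, with a median of -0.29. Over all 51477 probes measured in juveniles the median deviation of pool 3 was -0.02 and 53.0% lay below 0. Of the biomineralization list described below, 20 of 26 probes lay below 0, with a median of -0.16. These probes share 1 RNA pool, so their common direction is 1 observation and was not tested. Without juvenile pool 3 the differences from the umbonal stage were 6.38 for tyrosinase-like protein 1 and 10.24 for tyrosinase.

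**Figure D5:**
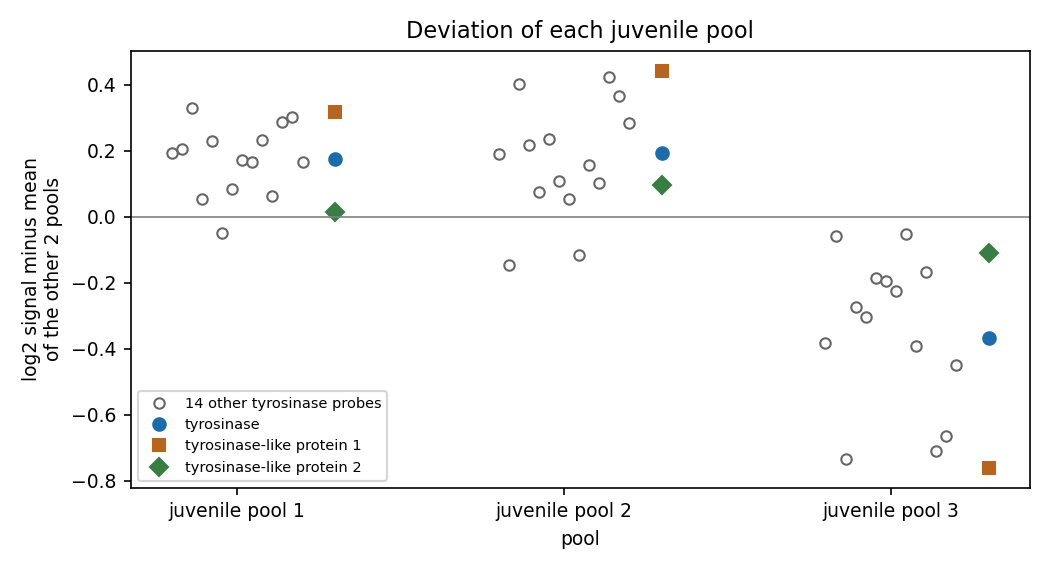
Log2 signal in each juvenile pool minus the mean of the other 2 pools (vertical axis), for the 3 members (coloured) and the 14 other tyrosinase probes (open). All 17 points of pool 3 lie below 0, between -0.05 and -0.76.

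The probes with the most similar course were sought among 52959 probes by the root-mean-square difference of probe-centred log2 values over the 15 arrays. For tyrosinase these were CUST_47434 (0.43), CUST_35887 (0.49), CUST_46826 (0.51), CUST_75_PI429683413 (0.55, of the probe set designed from GenBank sequences) and CUST_38535 (0.55), and of them only CUST_35887 has an annotation in the sources used here. For tyrosinase-like protein 2 they were CUST_52327 (0.31), CUST_42734 (0.41), annotated as a chitinase precursor of a hydroid, CUST_46682 (0.45), annotated as a Kunitz protease inhibitor, CUST_73_PI429683413 (0.46, of the GenBank set) and CUST_8632 (0.46). For tyrosinase-like protein 1 they were CUST_52830 (0.43), CUST_41282 (0.45), CUST_55611 (0.46), CUST_51308 (0.48) and CUST_49432 (0.48), none with an annotation here. Ranked by Pearson's r instead, 3 of the 5 stayed for tyrosinase and 1 of 5 for either tyrosinase-like protein. The 3 members were less alike, with root-mean-square differences of 1.56 between tyrosinase and tyrosinase-like protein 1, 1.23 between tyrosinase and tyrosinase-like protein 2, and 0.995 between the tyrosinase-like proteins. Their correlations over the 15 arrays were between 0.93 and 0.96, and rest on the step between juveniles and the other 4 stages.

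Tyrosine is also handled by other enzymes, and the study listed 25 further probes of the tyrosine metabolic pathway that changed at each transition from the trochophore stage on. Since the list was chosen on those changes, its counts are descriptions, at the first transition too, which shares the trochophore pools with D/T. At T/O, 4 of 18 probes tested were called higher in trochophores and 12 lower, with a median of -1.46 over the list against -0.07 over all probes tested; 26% and 27.1% of all probes tested were called in these directions. Tyrosinase was called higher there, as was temptin CUST_29733, a pheromone protein in sea hares, which was detected in no egg pool and was at least 31.5-fold higher in trochophores. The lowest was xanthine dehydrogenase CUST_54925, an enzyme of purine breakdown, at -3.83 (adjusted p = 7.5e-08).

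At D/T, 21 of the 25 pathway probes were called higher and 4 lower (16.8% and 16.6% of all probes tested were), and tyrosinase was lower too. The ends of the list were ovoperoxidase CUST_47036 at 5.49 and semicarbazide-sensitive amine oxidase CUST_23905 at -5.21. Ovoperoxidase is an enzyme that, in sea urchin eggs, hardens the coat by linking tyrosine residues. At U/D, 17 were called higher and 8 lower (16.2% and 15.8% of all probes tested were), ranging from 3.73 for gastric triacylglycerol lipase CUST_6716 to -7.98 for ovoperoxidase CUST_47036. At J/U, 18 were called higher and 7 lower (13.4% and 15.9% of all probes tested were), from 8.13 for ovoperoxidase CUST_47036 to -1.88 for glutathione S-transferase pi CUST_53080, with a median of 1.41. Unlike tyrosinase, ovoperoxidase CUST_47036 was high at 2 separate stages, with 12.18, 11.88 and 12.64 in D-shaped larvae, 4.24, 3.95 and 4.58 in umbonal larvae (detected in 1 of 3 pools) and 12.39, 12.53 and 12.22 in juveniles.

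The 3 members stand in the study's list of biomineralization genes, which holds 27 further probes. At T/O, 2 of 12 tested were called higher and 1 lower, beside 26% and 27.1% of all probes tested. At D/T, 2 of 14 were called higher and 3 lower, beside 16.8% and 16.6%. At U/D, 3 of 16 were called higher and 0 lower, beside 16.2% and 15.8%. At J/U, 20 of 26 were called higher and 0 lower, beside 13.4% and 15.9%, with a median of 6.003 over the list against -0.11 over all probes tested. In 21 of the 27, all juvenile pools lay above all earlier pools, as in the 3 members and in 12% of all probes. Prisilkin-39 (CUST_36021), a matrix protein of the prismatic layer, rose by 7.41 at J/U (adjusted p = 4.1e-09) after 3 transitions at which it was tested and not called. PFMG11 (CUST_1708) was detected in 2 of 3 juvenile pools and in no earlier one, and was not tested.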

How the data were processed

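RNA of 15 pools was hybridised to one-colour Agilent arrays. The authors deposited spot intensity values after Feature Extraction had subtracted the background, detrended each array and flagged spots, without scaling between arrays. The authors' deposited log2 values equal the log2 signal minus 1 constant per array, and served as an alternative. That constant was close to the log2 75th percentile of the array, so this alternative nearly repeats the 75th-percentile shift. Non-outlier spots of a probe were averaged, and log2 signals were quantile-normalized over 58883 probes and floored at a signal of 1. Stage means were fitted jointly in limma 3.58.1 (R 4.3.3) on the 15 arrays, and p values were adjusted by Benjamini-Hochberg over all probes tested in a comparison. The probes and lists were chosen with earlier results of these data known. The named probes are the members, the other probes annotated as tyrosinase, the 5 most similar probes of each member, the ends of the pathway list at each transition, and the biomineralization probes at the ends of the juvenile level. The alternatives were other scalings, normexp background correction (offset 50, on the median signal), filters, the SAM statistic, fewer arrays, blocks and each array left out. Tables were read in Python 3.11.15 with NumPy 2.4.6 and pandas 2.3.3, and plots drawn in matplotlib 3.10.9. With 3 arrays per stage, the number of arrays limits the precision. Probe sequences were not analysed here.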

Additional observations from a re-analysis of the deposited data

How the results depend on the processing

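Over 14 results, 102 of 118 values under other processings and 203 of 210 with 1 array left out were classed as unchanged. For a member this meant the same direction and the same call status, and a value that was not tested counted as not called. With an array left out, tyrosinase at U/D was tested in 2 of 15 values and tyrosinase-like protein 1 at U/D in 1 of 15. For the counts of other tyrosinase probes called, unchanged meant a count of similar size. At J/U all 3 members were called under every alternative that tested them. Tyrosinase at T/O was not called with normexp background correction (0.84) or on the 6 arrays compared (1.63, adjusted p = 0.10), and ranged from 1.05 to 2.49 with an array left out. Tyrosinase at D/T was not called with the 75th-percentile shift (-1.32), spike-in scaling (-0.76), the authors' processed values (-1.32), normexp (-0.87) or slide as a block (-1.59). It ranged from -1.82 to -1.44 with an array left out. The authors' processed values are scaled nearly as in the 75th-percentile shift, so these alternatives are not separate checks. Tyrosinase-like protein 2 at U/D was not called with spike-in scaling (-0.80), normexp (-0.27) or slide as a block (-0.75). With spike-in scaling its values at T/O (0.45) and D/T (0.49) turned positive, and the median over all probes moved from -0.07 to 0.42 and from -0.16 to 0.43. The cause was not tested. With no filter on dim probes, 2 other tyrosinase probes were called at T/O, 2 at D/T and 1 at U/D, in place of 1, 1 and 0. With each array left out the U/D count ranged from 0 to 1, the 1 without umbonal pool 3, and with folds as lower bounds, an alternative added after the data were seen, the T/O count was 0.

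The replicate numbers did not pair the arrays (correlations between -0.20 and 0.11 over 12 pairs), and with the replicate block no call changed, with 10.03 for tyrosinase at J/U. The filter on all 6 arrays left no member and none of the 14 other tyrosinase probes to test at any of the 4 transitions, and tyrosinase-like protein 1 gave no value at T/O and D/T, where it was not detected.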
